A study of Rattus norvegicus with 24 samples.

Results

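The genes described here encode voltage-gated sodium and calcium channels: probe sets with a single gene symbol in the platform annotation that began with Scn and a digit, or with Cacna, Cacnb or Cacng. The rule found 52 of 31099 probe sets, which stood for 36 genes, 12 of the sodium and 24 of the calcium channel families. Each gene was read at its probe set of highest mean. Of the 36 genes, 24 were bright enough to be tested and 12 were among the dimmest 40% of probe sets.

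The study measured total RNA from forebrain of male Fisher 344 rats, 11 to 12 weeks old, on Affymetrix rat arrays. Rats received 5, 20, 50, 200 or 500 mg/kg D-serine, a co-agonist of the NMDA type of glutamate receptor, or vehicle (0 mg/kg) as controls, and were killed 96 h later. Each of the 6 groups held 4 rats with 1 array per rat, 24 arrays in all. About 30 mg of forebrain was taken per rat, and the labels do not say where it was cut from. In tissue of many cell types, fewer cells of a type and less RNA per cell cannot be told apart.

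Voltage-gated sodium channels open on depolarisation and carry the rising phase of the action potential; a large pore-forming alpha subunit conducts the ions and small beta subunits set its gating and its place in the membrane. Voltage-gated calcium channels turn depolarisation into calcium entry, which drives transmitter release, dendritic signalling and transcription; their pore subunit assembles with an extracellular alpha2delta and a cytosolic beta subunit. The gamma family is named after a muscle calcium channel subunit, but its main brain members are known as TARPs, which bring AMPA glutamate receptors to the synapse and slow their closing.

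Promoter sequences are shown for 3 genes on which the comparisons below turn, so that the start regions of Cacng3 and Cacng8, both of the gamma family, can be set beside that of Scn3a. They are the 250 bases before the RefSeq gene start in the GRCr8 rat assembly, at chr1:186632312-186632561 (plus strand) for Cacng3, chr1:74691004-74691253 (minus strand) for Cacng8 and chr3:70666199-70666448 (minus strand) for Scn3a. Capitals mark matches to 4 motifs that were searched on both strands.
Cacng3: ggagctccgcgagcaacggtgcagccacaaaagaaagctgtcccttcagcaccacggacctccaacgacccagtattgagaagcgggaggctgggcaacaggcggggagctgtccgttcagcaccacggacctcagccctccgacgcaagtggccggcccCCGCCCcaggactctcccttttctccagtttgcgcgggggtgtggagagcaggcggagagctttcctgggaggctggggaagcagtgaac
Cacng8: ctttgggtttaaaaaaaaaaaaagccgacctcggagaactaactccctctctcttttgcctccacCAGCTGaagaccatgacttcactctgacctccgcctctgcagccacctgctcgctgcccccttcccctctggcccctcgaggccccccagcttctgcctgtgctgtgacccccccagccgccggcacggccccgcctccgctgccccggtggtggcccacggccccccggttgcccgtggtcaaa
Scn3a: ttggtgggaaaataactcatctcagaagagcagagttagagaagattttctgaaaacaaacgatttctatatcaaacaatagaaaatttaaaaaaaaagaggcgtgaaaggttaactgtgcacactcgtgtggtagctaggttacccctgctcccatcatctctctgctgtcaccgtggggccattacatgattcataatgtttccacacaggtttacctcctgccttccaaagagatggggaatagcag

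The Cacng3 window held 1 GC box (GGGCGG, here read on the other strand as CCGCCC) and was 64.8% G and C. The Cacng8 window, also 64.8% G and C, held 1 E-box (CAGCTG). The Scn3a window was 41.6% G and C and held none of the 4 motifs. RefSeq windows were matched for 26 of the 36 genes. A GC box stood in 12 of the 26, against 30.5% of 33469 rat promoter windows. An E-box stood in 7 of the 26 (12.0% of all windows), a TATA box (TATAAA) in 2 of the 26 (12.9%) and a cAMP response element (TGACGTCA) in 0 of the 26 (1.59%). The median G and C content was 61% over the 26 windows and 51.2% over all windows. A match here is a run of letters, and nothing is drawn from it about a factor.

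Before the comparisons, the arrays themselves need a description. The array of 500 mg/kg replicate 4 stood apart: its median correlation with the other arrays was 0.855, against 0.957 to 0.971 for the other 23. Its summed intensity of 9 cerebellar neuron markers was 21156.8, against at most 1991 on any other array, and its summed intensity of 6 cortical and hippocampal excitatory neuron markers was 1344.8, against at least 5796 elsewhere. Counts and the genes that passed are therefore given with all 24 arrays and with the 23 others, and other values state their number of arrays. A second measure moved with dose group. Beta-actin is read by separate control probe sets near its 3' and 5' ends, and the log2 of 3' over 5' signal is a sign of RNA integrity and labelling. It averaged 2.52 ± 0.18 in vehicle rats, 1.68 ± 0.11 in the 5 mg/kg group, 1.59 ± 0.18 in the 20 mg/kg group, 1.86 ± 0.07 in the 50 mg/kg group, 2.43 ± 0.14 in the 200 mg/kg group and 2.48 ± 0.22 in the 500 mg/kg group (SD, n = 4 each). It was lower than in vehicle at 5, 20 and 50 mg/kg (exact two-sided permutation p = 0.0286 each, the smallest that 4 against 4 arrays allow, adjusted p = 0.0476). The Gapdh ratio ran the same way, at 0.19, 0.18 and 0.34 for those 3 doses against 0.82 in vehicle. The ratio of hexokinase, the remaining control, overlapped vehicle in each of these groups: it averaged 1.51, 1.62 and 1.89 at those doses against 1.71 in vehicle (exact permutation adjusted p = 0.714, 0.886 and 0.714).

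With all 24 arrays, no channel gene passed limma's moderated test at an adjusted p under 0.05 (Benjamini-Hochberg over 18625 probe sets) in any comparison of a dose with vehicle. At 5 mg/kg 0 of 24 genes passed and 3 had an unadjusted p under 0.05, against 3.24% of 10205 measured genes that passed and 14.8% under the unadjusted limit. At 20 mg/kg 0 of 24 passed and 5 had an unadjusted p under 0.05 (5.16% and 16.9% of all genes). At 50 mg/kg the counts were 0 and 0 (0.402% and 10%), at 200 mg/kg 0 and 2 (0% and 4.4%), and at 500 mg/kg 0 and 1 (0% and 6.7%). The median log2 difference of the 24 genes lay between -0.15 (500 mg/kg) and 0.03 (20 mg/kg), and that of all genes between -0.01 and 0.00. At 500 mg/kg it was 0.06 without replicate 4. The F test of all 6 groups gave 0 passes and 2 unadjusted (3.37% and 13.7%), and the slope over dose rank gave 0 and 2 (0% and 5.73%).

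Without 500 mg/kg replicate 4 the median standard error of the channel genes' differences was 0.14 instead of 0.18 on the log2 scale, and a handful of genes passed. At 5 mg/kg 1 of 24 genes passed, Cacng3, which was higher than in vehicle (6.05% of all genes passed in that comparison). At 20 mg/kg 3 of 24 passed, Cacng3 and Cacnb4 higher and Scn3a lower (8.82% of all genes). At 50 mg/kg Scn3a alone passed, and it was lower (1.23%). At 200 and 500 mg/kg limma called 0 of 24, with 3 and 1 at an unadjusted p under 0.05 (0% of all genes passed at either dose, and 6.11% and 5.75% were under the unadjusted limit). The F test called 2 of 24, Cacng3 and Scn3a (4.6%), with 5 at an unadjusted p under 0.05 (15.4%), and the slope called 0, with 0 at an unadjusted p under 0.05 (0% and 4.1%). These shares stand near those of all genes, and the comparisons with vehicle share the same 4 vehicle arrays.

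**Figure D1:**
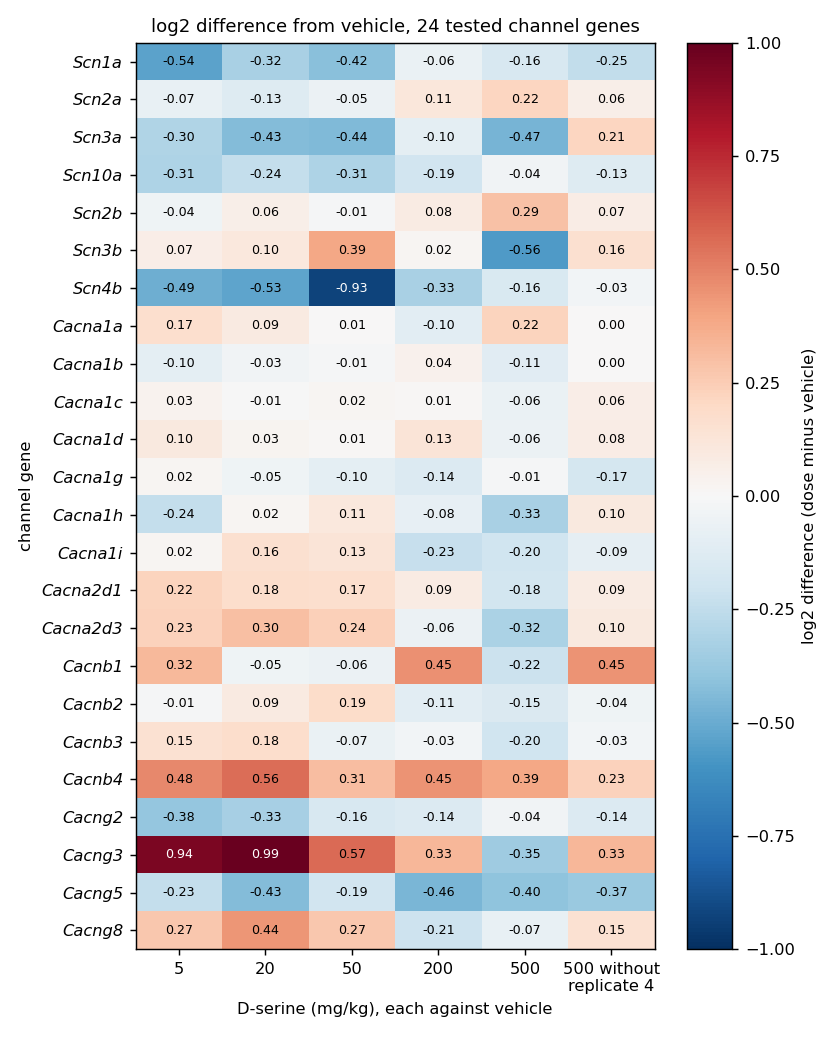
Log2 difference of each of the 24 tested channel genes from vehicle, one row per gene and one column per dose (dose minus vehicle, all 24 arrays), with 500 mg/kg repeated without replicate 4. Cacng3 is the strongest red at 5 and 20 mg/kg (0.94 and 0.99). At 500 mg/kg 4 of 24 genes are above vehicle with all arrays and 15 of 24 without replicate 4. Scn3b, Scn3a and Cacng3 are among those that turn from negative to positive.

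Among the sodium channel pore subunits, Scn3a, the alpha subunit most abundant in the developing brain, was lower at 20 and 50 mg/kg with 23 arrays. Its level in log2(intensity + 16) was 8.43, 8.31, 8.61 and 8.43 in vehicle. In dosed rats it was 7.99, 8.07, 8.29 and 8.24 with 5 mg/kg, 8.08, 7.87, 8.05 and 8.06 with 20 mg/kg, 8.27, 7.96, 7.98 and 7.82 with 50 mg/kg, 8.44, 8.45, 8.37 and 8.14 with 200 mg/kg, and 8.45, 8.79, 8.74 and 5.95 with 500 mg/kg. All arrays of 5, 20 and 50 mg/kg lay below all vehicle arrays, the 200 mg/kg arrays overlapped vehicle, and the last 500 mg/kg array lay far below every other. With 23 arrays Scn3a fell by 0.43 ± 0.10 at 20 mg/kg (SE, limma adjusted p = 0.00782). At 50 mg/kg it fell by 0.44 ± 0.10 (adjusted p = 0.0268). The difference at 5 mg/kg, -0.30 ± 0.10, did not pass (adjusted p = 0.0771). With 24 arrays the same differences at 20 and 50 mg/kg had adjusted p of 0.549 and 0.69, with a standard error of 0.37. On the scale as deposited, where the median of all probe sets at 20 mg/kg was itself higher by 0.37, the 24-array difference of Scn3a was -0.02 there. In every setting that left out replicate 4 of 500 mg/kg and 1 further array, the call at 20 mg/kg held (23 of 23, largest adjusted p = 0.0342, without 20 mg/kg replicate 2), and that at 50 mg/kg held in 17 of 23 (largest adjusted p = 0.118, without 50 mg/kg replicate 4).

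Scn3a also separated doses from each other without the use of vehicle. The 4 arrays at 5 mg/kg lay below the 3 remaining arrays at 500 mg/kg, a difference of -0.51 ± 0.11 (23 arrays, limma adjusted p = 0.0179), where 1 of 24 channel genes and 0.931% of all genes passed. That call held in 20 of 23 settings with 1 further array left out. It was lost without 500 mg/kg replicate 2 or 3 (limma adjusted p = 0.109 and 0.0994) or 5 mg/kg replicate 2 (limma adjusted p = 0.0508). With replicate 4 included the sign turned, to 0.17 ± 0.37 (adjusted p = 0.827), with 0 of 24 genes passing and 7 at an unadjusted p under 0.05 (2.22% and 16.8% of all genes). The difference of 20 from 200 mg/kg was -0.33 ± 0.10 with 23 arrays and did not pass (adjusted p = 0.0849). The Scn3a differences moved with the beta-actin and Gapdh ratios, while the hexokinase ratios overlapped vehicle: with each array's Gapdh ratio as a covariate and 23 arrays, they were -0.09 at 20 mg/kg (adjusted p = 0.994) and -0.18 at 50 mg/kg (adjusted p = 0.997). The part of RNA integrity in the Scn3a result was not tested beyond that fit, in which the Gapdh ratios at 5, 20 and 50 mg/kg (0.10 to 0.56) did not overlap those in vehicle (0.76 to 0.89).

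Scn1a, the sodium channel of fast-spiking interneurons, did not pass at any dose. Its level ran from 9.13 to 10.10 (median 9.83) in vehicle, from 8.71 to 9.61 at 5 mg/kg, from 8.35 to 9.83 at 20 mg/kg, from 8.72 to 9.54 at 50 mg/kg, from 9.25 to 10.02 at 200 mg/kg and from 9.19 to 10.01 at 500 mg/kg, so every group overlapped vehicle. The difference furthest from 0 was -0.54 ± 0.29 at 5 mg/kg (23 arrays, limma adjusted p = 0.275), with a 95% interval of -1.14 to 0.06. Scn2a, the main alpha subunit of excitatory axons, stayed within 9.11 and 9.60 on 23 arrays and stood at 10.05 on 500 mg/kg replicate 4. Its difference of 20 from 200 mg/kg, where the arrays did not overlap, was -0.24 ± 0.09 and did not pass (23 arrays, adjusted p = 0.181). Scn10a, known from peripheral sensory neurons, lay below vehicle on every 50 mg/kg array but did not pass (-0.31 ± 0.16, adjusted p = 0.334).

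The other 5 alpha subunits were too dim to be tested. Scn8a, the alpha subunit of mature nodes and axon initial segments, read 6.01, 6.09, 6.29 and 5.95 at 20 mg/kg, against 5.32, 5.75, 4.46 and 5.93 in vehicle, without overlap. When no probe set was filtered out, its difference at 20 mg/kg was 0.72 and did not pass (24 arrays, limma adjusted p = 0.216). Scn7a, a sodium-sensing member that is not opened by voltage in the usual way, had its 2 highest levels on vehicle replicate 2 (7.21) and 50 mg/kg replicate 3 (6.34). Those 2 arrays also had the highest summed intensities of 7 thalamic neuron markers, 4582 and 3156, against at most 1149 on the other arrays apart from 500 mg/kg replicate 4 (2916). On 500 mg/kg replicate 4 Scn7a read 5.38. Over the other 23 arrays with group means removed, its relation with the mean of these markers did not pass (r = 0.82, adjusted permutation p = 0.191). By rank it did not pass either (rho = 0.60, adjusted permutation p = 0.167), and r was 0.51 without those 2 arrays. The same 2 arrays also had the highest summed intensities of 4 choroid plexus markers, 9026 and 8703, against at most 7659 elsewhere (200 mg/kg replicate 4). Scn7a was not set against the choroid plexus markers. Scn4a of skeletal muscle and Scn9a and Scn11a of sensory neurons stayed between 4.28 and 5.82 on all 24 arrays. Within that range, Scn4a was higher at 500 mg/kg than in vehicle by 0.69 with no filter (24 arrays, limma adjusted p = 0.679). Its difference of 5 from 500 mg/kg was -0.80 (adjusted p = 0.0799). Without a filter none of the 12 dim channel genes passed in any comparison, with a smallest adjusted p of 0.0799 with 24 arrays and 0.128 with 23.

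Among the sodium channel beta subunits, Scn4b, the beta subunit enriched in striatal projection neurons, read 10.10, 9.91, 9.30 and 11.39 in vehicle. In dosed rats it was 9.67, 8.82, 10.19 and 10.05 with 5 mg/kg, 7.74, 9.91, 10.03 and 10.90 with 20 mg/kg, 10.48, 9.06, 8.78 and 8.67 with 50 mg/kg, 10.78, 10.14, 8.83 and 9.64 with 200 mg/kg, and 10.09, 10.34, 10.01 and 9.63 with 500 mg/kg. Within the 20 mg/kg group alone the arrays spanned more than 3 log2 units, and every dose group overlapped vehicle. The difference at 50 mg/kg was -0.93 ± 0.54 (23 arrays, limma adjusted p = 0.414), with a 95% interval of -2.04 to 0.19, so a change of that size could not be told from none with these arrays. Scn2b kept to 9.85 to 10.30 on 23 arrays, and none of its differences passed.

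Scn3b, a beta subunit of brain neurons, was highest at 50 mg/kg, at 10.08, 10.66, 10.48 and 10.38, against 9.74 to 10.26 (median 10.02) in vehicle, with overlap. The difference was 0.39 ± 0.13 with 23 arrays and did not pass (limma adjusted p = 0.108). A further probe set of the gene read 9.10, 9.51, 9.39 and 8.86 at 50 mg/kg, against 8.45, 8.94, 8.77 and 8.57 in vehicle. It rose by 0.53 ± 0.14 with 23 arrays (adjusted p = 0.0466, F test adjusted p = 0.037) and did not pass with 24 (adjusted p = 0.608). The probe sets of Scn3b thus had the same direction at 50 mg/kg but lay on different sides of the threshold.

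The relation of Scn4b to striatal tissue could be measured across arrays. Over 23 arrays, after the group means were removed, the Scn4b level correlated with the mean of 8 striatal markers. Pearson's r was 0.86 (permutation p = 1e-05, the smallest that 100000 resamples give, adjusted p = 0.00144). Spearman's rho was 0.85 (permutation p = 4e-05, adjusted p = 0.00576). Without the 2 arrays farthest from the median of the markers r was 0.81. The Scn4b relation was the strongest of 144 relations, 36 genes against 4 marker lists. Of these, 4 passed by Pearson's r and 8 by Spearman's rho, the first 4 among them. No other genes were set against the marker lists in this way, so these counts have no share of all genes beside them. Nothing particular to channel genes can be read from them. Cacna2d1 was lower on arrays with more of 7 myelinating oligodendrocyte markers (r = -0.86, adjusted permutation p = 0.0187, r = -0.84 without 2 arrays). Cacna1c was too (r = -0.69, adjusted permutation p = 0.0497, r = -0.55 without 2 arrays), while Scn1a was higher on them (r = 0.68, adjusted permutation p = 0.0497, r = 0.58 without 2 arrays). The 4 that passed by rank alone were with the thalamic markers (adjusted permutation p = 0.0466 each): Cacnb2 was higher with more of them (rho = 0.62), and Cacna1e, Cacng2 and Scn2a were lower (rho = -0.62, -0.54 and -0.61). Without the 2 arrays farthest in these markers r was 0.49 for Cacnb2, and -0.47, -0.47 and -0.49 for Cacna1e, Cacng2 and Scn2a. Cacna1e was among the genes too dim to be tested with limma. Striatal markers summed to between 1174 and 7955 on the 23 arrays, with ranges that overlapped between all dose groups and vehicle. At 50 mg/kg that overlap came from replicate 1 alone (6068). Replicates 2, 3 and 4 there summed to 1273, 1174 and 1198, below the lowest vehicle array (2568). The lowest arrays at 5, 20 and 200 mg/kg (1216, 1373 and 1585) also lay below it. The part of striatal markers in the Scn4b difference at 50 mg/kg was not tested.

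**Figure D2:**
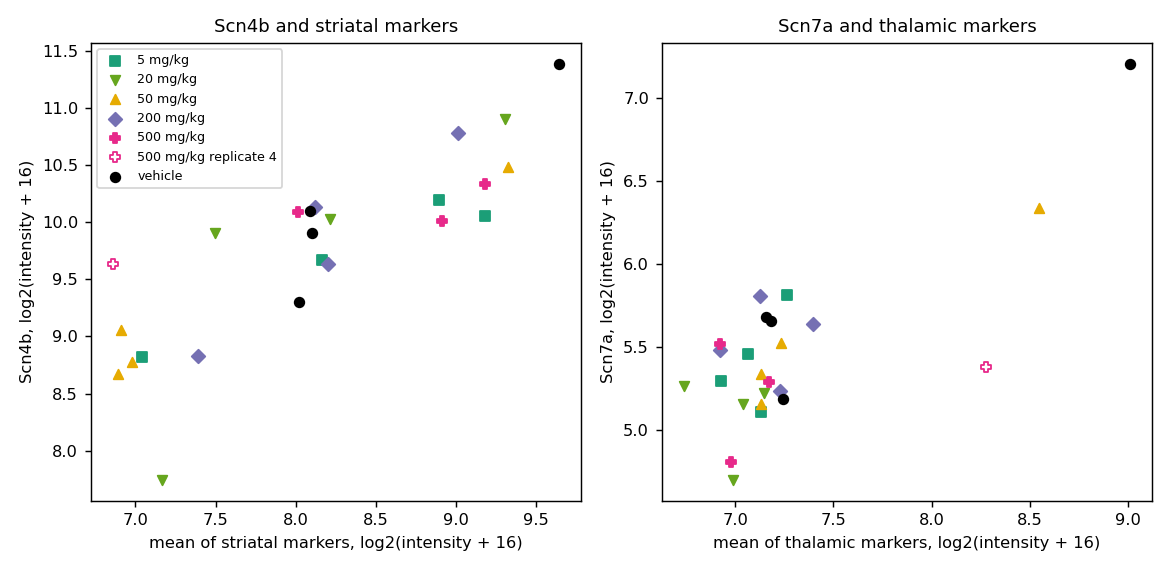
Each point is 1 array, with the colour and shape giving its dose group; the axes are in log2(intensity + 16). Scn4b climbs with the mean of the striatal markers (left) and is highest, at 11.39, on vehicle replicate 4. Its lowest level, 7.74, is on 20 mg/kg replicate 1, where the marker mean (7.17) is above that of 50 mg/kg replicate 4 (6.89). The 2 highest Scn7a levels, 7.21 and 6.34, lie on the 2 arrays with the highest thalamic markers (right). The relation of Scn7a with the thalamic markers did not pass (23 arrays, adjusted permutation p = 0.191 by r and 0.167 by rho).

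Scn1a was also set against parvalbumin (Pvalb), the calcium-binding protein of fast-spiking interneurons, a pair chosen after the values were seen. Over 23 arrays and after removal of the group means r was 0.89 and rho 0.83 (permutation p = 2e-05 and 0.00016), and r was 0.89 without the 2 farthest arrays. The 3 lowest Scn1a levels, 8.35 on 20 mg/kg replicate 1, 8.71 on 5 mg/kg replicate 4 and 8.72 on 50 mg/kg replicate 1, stood beside Pvalb levels of 8.47, 8.13 and 8.46. Pvalb was also low, at 8.28, on 500 mg/kg replicate 3, where Scn1a read 9.19.

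The pore subunits of calcium channels showed little movement with dose at their main probe sets. Of the P/Q and N types, which trigger transmitter release, Cacna1a ranged from 6.18 to 6.79 on 23 arrays and its largest difference from vehicle was 0.17 ± 0.14 at 5 mg/kg (limma adjusted p = 0.521). Cacna1b ranged from 8.53 to 9.07, with all differences from vehicle between -0.10 and 0.04. Cacna1e, the R type, was dim, at 4.38 to 5.78 on 23 arrays. Of the L type channels, which couple activity to transcription, Cacna1c averaged 7.51 ± 0.18 at 20 mg/kg and 7.51 ± 0.12 in vehicle (SD, n = 4 each), and its differences from vehicle lay between -0.01 and 0.06 with 23 arrays. The 95% interval at 20 mg/kg, -0.26 to 0.25, leaves room for a change of that size in either direction. Cacna1d ranged from 6.93 to 7.60, and the retinal Cacna1f and skeletal muscle Cacna1s were dim.

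The T type channels, which open near rest and support burst firing, were all measured. Cacna1g averaged 6.77 ± 0.10 at 20 mg/kg and 6.82 ± 0.13 in vehicle (SD, n = 4 each), and no dose differed from vehicle by more than 0.17 with 23 arrays. Cacna1h differed from vehicle by -0.24 at 5 mg/kg and by 0.11 or less elsewhere, and Cacna1i by at most 0.23 either way. Cacna1i was higher at 20 than at 200 mg/kg by 0.39 ± 0.15 but did not pass (23 arrays, limma adjusted p = 0.189).

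Of the alpha2delta subunits, which carry the channel to the membrane and bind gabapentin in the case of Cacna2d1, neither passed. Cacna2d1 averaged 8.80 ± 0.12 at 5 mg/kg and 8.57 ± 0.25 in vehicle (SD, n = 4 each), a difference of 0.23 ± 0.11 (23 arrays, limma adjusted p = 0.219). Cacna2d3 averaged 9.59 ± 0.12 at 20 mg/kg and 9.29 ± 0.29 in vehicle, a difference of 0.30 ± 0.13 (23 arrays, adjusted p = 0.129).

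Among the cytosolic beta subunits, which traffic the pore and modulate its gating, Cacnb4 was the one that passed. It read 6.03, 5.84, 6.19 and 6.17 in vehicle. In dosed rats it was 6.09, 6.87, 6.45 and 6.74 with 5 mg/kg, 6.24, 6.90, 6.82 and 6.53 with 20 mg/kg, 6.10, 6.38, 6.43 and 6.58 with 50 mg/kg, 6.49, 6.63, 6.68 and 6.23 with 200 mg/kg, and 6.42, 6.37, 6.07 and 6.92 with 500 mg/kg. Every array at 20 and at 200 mg/kg lay above every vehicle array, and the other doses overlapped vehicle. Cacnb4 rose by 0.56 ± 0.17 at 20 mg/kg with 23 arrays (limma adjusted p = 0.0297) and missed the threshold with 24 (adjusted p = 0.0636). The difference at 200 mg/kg, 0.45 ± 0.17, did not pass (23 arrays, adjusted p = 0.595). The call at 20 mg/kg held in 19 of 23 settings with 1 further array left out, and its adjusted p was 0.108 without 20 mg/kg replicate 2. With the Gapdh ratio as a covariate the 23-array difference was 0.45 (adjusted p = 0.984). In that fit the ratios at 20 mg/kg (0.15 to 0.23) did not overlap those in vehicle (0.76 to 0.89), so it cannot tell the ratio from the dose group. The part of RNA integrity in the Cacnb4 rise was not tested further.

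Cacnb1, Cacnb2 and Cacnb3 did not pass. Cacnb1, which is also the beta subunit of skeletal muscle, was higher by 0.45 ± 0.17 in the 200 mg/kg group and by 0.45 ± 0.19 in the 500 mg/kg group with 23 arrays (limma adjusted p = 0.603 and 0.772), with overlap in both cases. A further probe set of Cacnb1, about as bright, differed by 0.12 ± 0.15 and -0.05 ± 0.16 at those doses (23 arrays, adjusted p = 0.899 and 0.984). The main probe set of Cacnb2 moved by at most 0.19. A dimmer probe set of Cacnb2 differed by 0.68 ± 0.24 at 20 mg/kg and did not pass (23 arrays, adjusted p = 0.0636).

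The gamma family held the largest differences that passed. Cacng3, a TARP of cortical and hippocampal synapses, read 7.87, 7.31, 8.05 and 7.66 in vehicle. In dosed rats it was 8.71, 8.74, 8.64 and 8.56 with 5 mg/kg, 8.29, 8.99, 8.98 and 8.59 with 20 mg/kg, 7.91, 8.50, 8.10 and 8.64 with 50 mg/kg, 7.71, 7.82, 8.34 and 8.33 with 200 mg/kg, and 8.01, 8.13, 8.01 and 5.32 with 500 mg/kg. Every array at 5 and 20 mg/kg lay above every vehicle array, while those at 50, 200 and 500 mg/kg overlapped vehicle. The level was highest at the 2 lowest doses, and the order of 5 and 20 mg/kg lay within their spread. With 23 arrays Cacng3 rose by 0.94 ± 0.18 in the 5 mg/kg group (1.92-fold, limma adjusted p = 0.00192) and by 0.99 ± 0.18 in the 20 mg/kg group (1.99-fold, adjusted p = 0.000818). The differences at 50 mg/kg (0.57 ± 0.18, adjusted p = 0.0995), 200 mg/kg (0.33 ± 0.18, adjusted p = 0.741) and 500 mg/kg (0.33 ± 0.20, adjusted p = 0.863) did not pass, and with replicate 4 that at 500 mg/kg was -0.35 ± 0.40 (adjusted p = 0.858). Every array at 5 mg/kg also lay above every array at 500 mg/kg, but the difference did not pass with 23 arrays (0.61 ± 0.20, adjusted p = 0.123) or with 24 (1.30 ± 0.40, adjusted p = 0.0704).

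With 24 arrays the Cacng3 differences at 5 and 20 mg/kg were the same size, but their standard error was 0.40 and the adjusted p were 0.189 and 0.138. Both calls held in 23 of 23 settings with 1 further array left out, with a largest adjusted p of 0.00951 at 5 mg/kg and 0.00536 at 20 mg/kg. The rise went with the beta-actin and Gapdh ratios, which were lowest at those doses, while the hexokinase ratios overlapped vehicle: with the Gapdh ratio as a covariate the 23-array differences were 0.14 at 5 mg/kg and 0.17 at 20 mg/kg (adjusted p = 0.99 and 0.994). In that fit the Gapdh ratios at 5 mg/kg (0.10 to 0.25) and 20 mg/kg (0.15 to 0.23) did not overlap those in vehicle (0.76 to 0.89). The fit therefore cannot tell the ratio from the dose group, and with 24 arrays it turned the sign of both differences. The part of RNA integrity in the Cacng3 rise was not tested beyond that fit. The cortical and hippocampal excitatory markers, with sums of 5796 to 8905 at 5 mg/kg and 6912 to 8616 at 20 mg/kg against 6997 to 9211 in vehicle, overlapped between these doses and vehicle. Taken as the mean log2 level, which weights dim and bright markers alike, they read 9.59, 9.51, 9.37 and 9.01 at 5 mg/kg and 9.41, 9.44, 9.47 and 9.20 at 20 mg/kg, against 9.31, 8.93, 9.32 and 9.09 in vehicle, so 3 of 4 arrays at each dose lay above all vehicle arrays. Within groups, Cacng3 was higher on arrays with more of these markers (23 arrays, r = 0.58, rho = 0.57, permutation p = 0.0051 and 0.00995, r = 0.60 without 2 arrays), a relation that missed the threshold after adjustment (adjusted p = 0.087 and 0.0965). The part of these markers in the Cacng3 rise was not tested.

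**Figure D3:**
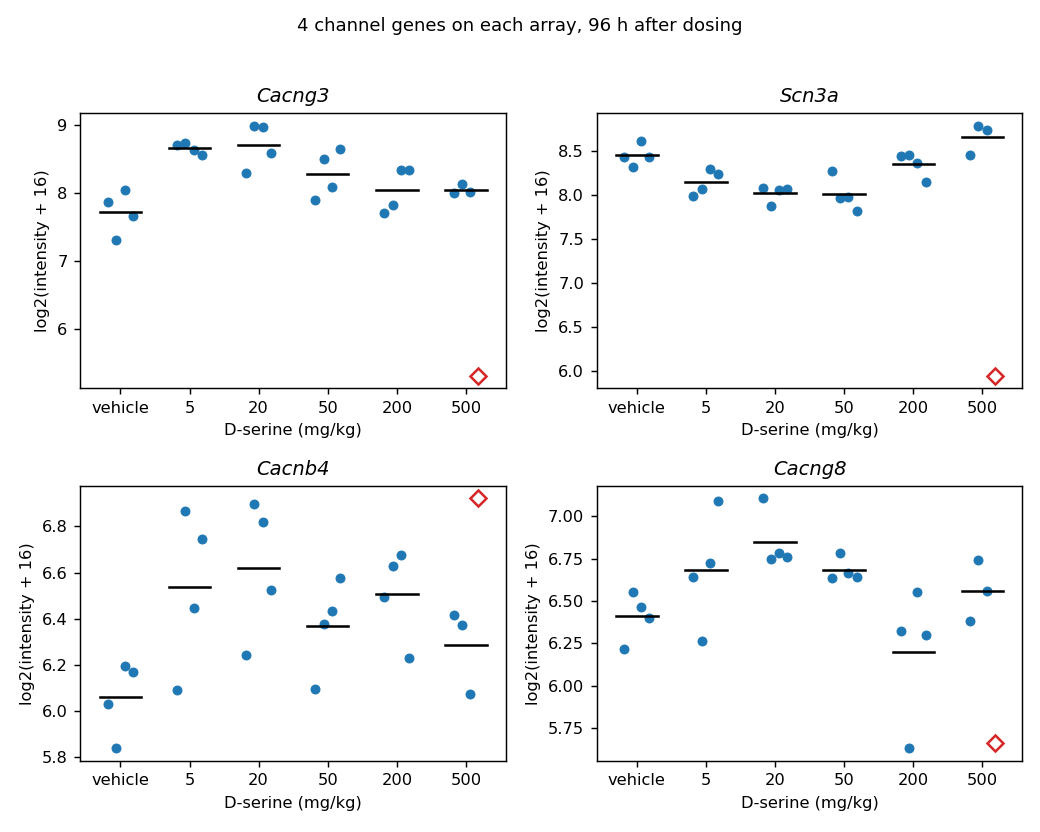
Level of Cacng3, Scn3a, Cacnb4 and Cacng8 on each array, in log2(intensity + 16), by dose, with bars at the group mean; the open red diamond is 500 mg/kg replicate 4, left out of that group's mean. Cacng3 sits between 8.29 and 8.99 at 5 and 20 mg/kg, above all 4 vehicle arrays (7.31 to 8.05), and Scn3a at 20 mg/kg (7.87 to 8.08) lies below all vehicle arrays (8.31 to 8.61).

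Comparing the middle of the dose range with a higher dose, without vehicle, 2 of 24 channel genes rose at 20 against 200 mg/kg with 23 arrays, Cacng3 and Cacng8 (1.52% of all genes passed). With 24 arrays 0 of 24 passed, with 2 at an unadjusted p under 0.05 (0.529% and 9.62% of all genes). Cacng3 was higher at 20 mg/kg by 0.66 ± 0.18 (23 arrays, limma adjusted p = 0.0459; 24 arrays, adjusted p = 0.521), a call that held in 7 of 23 settings with 1 further array left out. Cacng8, a TARP of the hippocampus, read 7.11, 6.75, 6.78 and 6.76 at 20 mg/kg, against 6.32, 5.63, 6.56 and 6.30 at 200 mg/kg, without overlap. It was higher by 0.65 ± 0.17 (23 arrays, adjusted p = 0.036; 24 arrays, adjusted p = 0.123), a call that held in 18 of 23 settings and was lost without 200 mg/kg replicate 2 (adjusted p = 0.169), the lowest array. Against vehicle, at 6.22 to 6.56, Cacng8 was higher at 20 mg/kg by 0.44 ± 0.17 and did not pass (adjusted p = 0.0929).

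The remaining gamma genes did not pass. Cacng2, stargazin, the first TARP described, read 7.70, 7.83, 7.75 and 7.45 at 5 mg/kg, an average of 7.68 ± 0.16, against 8.07 ± 0.09 in vehicle (SD, n = 4 each), without overlap. The difference was -0.38 ± 0.13 (23 arrays, limma adjusted p = 0.064), and a further probe set of the gene differed by -0.27 with 24 arrays. Cacng5 differed by -0.43 ± 0.20 at 20 mg/kg (23 arrays, adjusted p = 0.163), with overlap. Cacng1 and Cacng6 of muscle, and Cacng4 and Cacng7, were dim and did not pass without the filter.

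Counts of genes whose groups did not overlap were read against all genes with 23 arrays. At 5 mg/kg 3 of 24 did not overlap vehicle (Cacng3 above, Cacng2 and Scn3a below), against 10.9% of all genes. At 20 mg/kg 4 of 24 did not (Cacnb4, Cacng3 and Cacng8 above, Scn3a below), against 12.2%. At 50 mg/kg 3 of 24 did not (Cacng8 above, Scn10a and Scn3a below), against 6.25%, at 200 mg/kg 1 of 24 did not (Cacnb4), against 3.19%, and at 500 mg/kg 0 of 24 did not, against 6.17%. Between 20 and 200 mg/kg 3 of 24 did not overlap (7.59%), and between 5 and 500 mg/kg 3 of 24 did not (13.7%).

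On the array of 500 mg/kg replicate 4 itself, 20 of the 24 tested channel genes lay outside the range of all other arrays, 7 above and 13 below, against 21.3% and 21.8% of all genes. Against the average of the other three 500 mg/kg arrays, 7 channel genes were lower by at least 1 log2 unit (6.41% of all genes were) and 0 higher by as much (3.23%). The other arrays had between 0 and 5 channel genes outside the range of the rest, against 3.87% to 13.2% of all genes; the 5 were on 20 mg/kg replicate 1, where 12.2% of all genes were outside. On 500 mg/kg replicate 4 Scn3b read 7.29, against a mean of 10.17 on the rest of its group, and its further probe set 6.09 against 8.73. Cacng3 read 5.32 against 8.05, Scn3a 5.95 against 8.66, Cacnb1 4.79 against 7.46, Cacna1h 5.78 against 7.49 and Cacna2d3 7.74 against 9.39. The 6 highest were Cacna1a (7.30 against 6.41), Scn2b (10.94 against 10.07), Cacna1g (7.29 against 6.64), Cacnb4 (6.92 against 6.29), Scn2a (10.05 against 9.43) and Cacng2 (8.32 against 7.93).

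Probe sets of one gene did not always go together on that array. Cacnb1 differed by -2.67 at its main probe set and by -0.66 at its other, and Cacna1h differed by -1.71 and 0.00. Cacna1a differed by 0.89, 0.86 and 0.09 at its 3 tested probe sets. The cerebellar markers on the array were far above any other: Pcp2 of Purkinje cells read 12.34, against 5.91 to 6.86 on the other 23, and Gabra6 of granule cells read 10.73, against at most 5.98. The excitatory marker Nrgn read 6.41, against 11.08 to 11.49 on replicates 1 to 3. What these channel values share with the marker values was not tested.

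**Figure D4:**
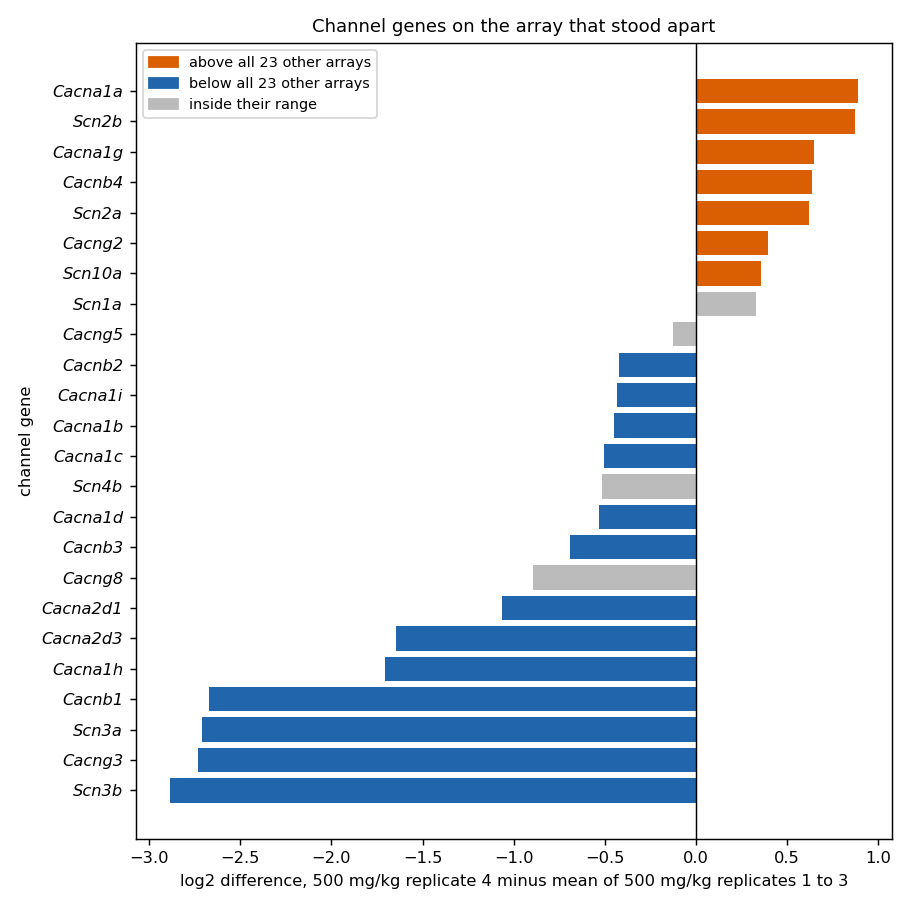
Log2 difference of 500 mg/kg replicate 4 from the average of replicates 1 to 3, one bar per tested channel gene; orange bars lie above, and blue bars below, all 23 other arrays, and grey bars lie inside their range. Scn3b, Cacng3, Scn3a and Cacnb1 differ by -2.67 to -2.88 log2 units, and Cacna1a and Scn2b are higher by 0.89 and 0.87.

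Of 24 genes that encode partners of these channels, such as FGF homologous factors, ankyrins, calmodulins, RIM proteins and SNARE proteins, 21 were measured and 17 tested. With 24 arrays limma called 0 of 17 in every comparison, with 4 at an unadjusted p under 0.05 at 20 mg/kg (16.9% of all genes). With 23 arrays 1 rose and 1 fell at 20 mg/kg (8.82% of all genes passed), and 1 rose at 5 mg/kg (6.05%), counts near those shares. Calm2, a calmodulin, rose by 0.21 ± 0.07 at both 5 mg/kg (adjusted p = 0.0441) and 20 mg/kg (adjusted p = 0.0335). Sptbn4, the spectrin that anchors sodium channels at the axon initial segment, fell by 0.33 ± 0.10 at 20 mg/kg (adjusted p = 0.0251). Unc79, a subunit of the sodium leak channel complex, differed by -0.29 ± 0.10 at 20 mg/kg (adjusted p = 0.0563), and Fgf12 by 0.00 ± 0.08 (adjusted p = 0.985).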

How the data were processed

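Each probe set has 1 linear signal, deposited as intensity and made by the authors in GCOS (the Affymetrix software for its arrays), as per the submitters' processing notes; for its version, its settings and its detection calls the sources used here give nothing. The labels put each rat in its group, and they number the rats in the order vehicle, 500, 200, 50, 20 and 5 mg/kg, so handling in that order would go with dose. Array medians spanned 0.73 on the log2 scale, so intensities were quantile normalized and taken as log2(intensity + 16), which understates changes of dim probe sets. Of 31099 probe sets, 57 controls and the dimmest 40% (mean at or below 5.98) were left out, leaving 18625. In the platform annotation 20832 probe sets had 1 symbol, 436 several and 9831 none.

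Group means of all 24 arrays were fitted in limma 3.58.1 (R 4.3.3) with a trended prior variance, with Benjamini-Hochberg adjustment over all probe sets within each comparison; a gene passed at an adjusted p under 0.05. The 23 arrays without 500 mg/kg replicate 4 were normalized and fitted again on the same probe sets. Errors of differences are standard errors. Relations with marker lists used values with group means removed and permutations within groups. The members, gene lists and rules for named genes were chosen with earlier results of these data known: members were ordered by role, and those that passed, together with 13 set by name, were given in full. Alternatives were other normalizations, pseudocounts of 1 and 64, filters, array weights, the Gapdh ratio as a covariate, 2-group fits and each array left out. The number of arrays limits the precision. No column was left without a sample, 0 pairs of arrays were identical, and scan dates were not used here.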

Additional observations from a re-analysis of the deposited data

Results flagged for a closer look

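Among 84 groups of 4 arrays, for 14 channel genes named in full, 8 held an array far from the other 3 of its group by Dixon's test; chance flags about 1 in 20 groups. Values are log2(intensity + 16). On 500 mg/kg replicate 4, Cacng3 read 5.32 (nearest other array 8.01), Scn3a 5.95 (8.45), Scn3b 7.29 (10.04) and Scn2a 10.05 (9.48).

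The remaining cases were spread over other arrays. Scn1a read 8.35 on 20 mg/kg replicate 1 (nearest 9.62) and 8.72 on 50 mg/kg replicate 1 (nearest 9.45). Scn3a read 7.87 on 20 mg/kg replicate 2 (nearest 8.05), and Cacng8 read 7.11 on 20 mg/kg replicate 1 (nearest 6.78).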

How the results depend on the processing

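With all 24 arrays 0 channel genes passed in any comparison, and most alternatives left it so. Shares in brackets are of all genes that passed in the same fit. With intensities as deposited 9 of 24 passed at 20 mg/kg (38.3%), 11 at 20 against 200 mg/kg (45.6%), 4 at 5 against 500 mg/kg (14.4%) and 8 by the F test (30%); the median of all probe sets was then itself shifted by 0.19, 0.37, 0.41 and 0.27 for 5 mg/kg, 20 mg/kg, 20 against 200 mg/kg and 5 against 500 mg/kg, and all calls with a direction were higher. A pseudocount of 64 gave 1 at 5 against 500 mg/kg (Cacng3; 2.31%). Array weights gave 1 at 5 mg/kg (6.08%), 2 at 20 mg/kg (9.21%), 2 at 20 against 200 mg/kg (4.92%) and 3 by the F test (8.49%). Fits to only the arrays of both groups gave 1 at 5 mg/kg (Cacng3; 2.69%) and 2 at 20 mg/kg (Cacng3 and Scn3a; 4.19%). Leaving out 1 array gave 0 to 1 genes at 5 mg/kg (1.6% to 6.05%), 0 to 3 at 20 mg/kg (2.84% to 8.82%), 0 to 1 at 50 mg/kg (0.0392% to 1.23%), 0 to 2 at 20 against 200 mg/kg (0.049% to 1.52%), 0 to 1 at 5 against 500 mg/kg (0.833% to 2.54%) and 0 to 2 by the F test (2% to 4.6%). The highest counts came without 500 mg/kg replicate 4. At 20 mg/kg, 1 gene also passed without vehicle replicate 4 (Cacng5) and without 5 mg/kg replicate 1 or 20 mg/kg replicate 1 (Cacnb4), and at 5 against 500 mg/kg 1 passed without 500 mg/kg replicate 1, 2 or 3 (Cacng3). Settings added after the data were seen, all without 500 mg/kg replicate 4, gave with no filter, of 36 genes, 1 at 5 mg/kg (3.55%), 2 at 20 mg/kg (5.26%), 1 at 50 mg/kg (0.549%), 1 at 5 against 500 mg/kg (0.506%) and 2 by the F test (2.69%); with median centring 1, 3, 1, 1 and 2 there (5.12%, 6.73%, 0.608%, 0.5% and 3.36%) and 1 at 20 against 200 mg/kg (1.11%); and with the Gapdh covariate 0 throughout.

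Directions turned in few cases. With the Gapdh covariate and 24 arrays, Cacng3 differed by -0.90 (5 mg/kg), -0.88 (20 mg/kg) and -0.55 (20 against 200 mg/kg). Scn3a at 5 against 500 mg/kg, 0.17 with all arrays, was -0.46 with array weights, -0.64 with the covariate, and -0.51 to 0.44 with 1 array left out (lowest when replicate 4 of the 500 mg/kg group was left out, highest for its replicate 2). In fits lacking replicate 4 it was -0.25, -0.51 and -0.52 with the covariate, no filter and median centring. The cause was not tested. No paired analysis was possible because each array is another animal and the labels give no replicate numbers.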
